A study of Mus musculus with 33 samples.

Results

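The TGF-beta and activin genes followed here were 9 genes, namely the ligands Tgfb1, Tgfb2 and Tgfb3, the receptors Tgfbr1, Tgfbr2 and Tgfbr3, the activin subunits Inhba and Inhbb, and the activin-binding protein follistatin (Fst). They were taken by gene symbol from the array's annotation, where they had 21 probe sets (groups of short probes that together measure 1 transcript) out of 45037, and they were 9 of the 18193 genes with a probe set of their own. Each gene was read from its main probe set, the one with the highest mean log2 signal over all 33 arrays, and all 9 main probe sets passed the filter on low signals, as did 9 of the 12 others. The skin was the upper-mid back of wild-type C57BL/6 mice, with RNA of 1 mouse on each array. In the depilation-induced cycle, hair was pulled with a wax and rosin mixture from mice of 7 weeks whose follicles were in telogen, and skin was taken 3 days later in early anagen (D3), 5 days later in mid anagen (D5), 8 and 12 days later in late anagen (D8 and D12) and 17 days later in early catagen (D17), with 2 arrays for each day. These mice were all female and labelled as at least postnatal day 50. In the natural second cycle, early anagen was postnatal days 23 and 25 (P23 and P25, 2 arrays each), mid anagen P27 (3 arrays), late anagen P29 (3 arrays) and P34 (1 array), early catagen P37 and P39 (3 arrays each), mid catagen P41 (3 arrays) and telogen P44 (3 arrays), from mice of both sexes. Age, sex and depilation therefore cannot be told apart in a comparison of the cycles, and skin of the same age without depilation was not analysed here.

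Hair follicles grow in anagen, regress in catagen and rest in telogen. Ligands of the TGF-beta family bind a pair of type I and type II receptor kinases, here encoded by Tgfbr1 and Tgfbr2, which phosphorylate SMAD2 and SMAD3. These join SMAD4 and enter the nucleus. Tgfbr3 encodes betaglycan, a coreceptor that presents TGF-beta2 to the signalling receptors. Activins are dimers of the beta subunits that Inhba and Inhbb encode, they signal through their own receptors to the same SMADs, and follistatin binds and inhibits them. TGF-beta ligands are known for promoting catagen in mouse skin.

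Promoters were examined for motifs because the members fell into different courses over the cycle. A stretch of 250 bases before the start site was matched in RefSeq (GRCm38.p6) for 6 of the 9 members. By phase means Inhba and Inhbb were highest in mid catagen, Inhba with overlapping phases. Stretches of 3 genes are printed below, since Inhbb stood clear of its other phases there and Tgfbr2 and Tgfb2 had their highest means in telogen. For Tgfb2 telogen overlapped mid catagen. They lie on the minus strand at chr1:119422249-119422498 for Inhbb, chr9:116175364-116175613 for Tgfbr2 and chr1:186705990-186706239 for Tgfb2, and the last lies inside the annotated span of the gene, which ends at base 186709697. Capitals mark the motifs searched on both strands.
Inhbb: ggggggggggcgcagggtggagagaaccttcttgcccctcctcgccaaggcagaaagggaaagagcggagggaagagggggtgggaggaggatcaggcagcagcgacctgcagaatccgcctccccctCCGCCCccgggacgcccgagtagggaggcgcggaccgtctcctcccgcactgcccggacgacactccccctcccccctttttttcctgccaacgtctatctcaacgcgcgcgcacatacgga
Tgfbr2: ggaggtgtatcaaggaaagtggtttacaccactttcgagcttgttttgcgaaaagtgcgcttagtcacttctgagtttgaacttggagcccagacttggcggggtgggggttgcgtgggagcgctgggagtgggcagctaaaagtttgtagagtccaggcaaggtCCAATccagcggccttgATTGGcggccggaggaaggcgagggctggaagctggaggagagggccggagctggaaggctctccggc
Tgfb2: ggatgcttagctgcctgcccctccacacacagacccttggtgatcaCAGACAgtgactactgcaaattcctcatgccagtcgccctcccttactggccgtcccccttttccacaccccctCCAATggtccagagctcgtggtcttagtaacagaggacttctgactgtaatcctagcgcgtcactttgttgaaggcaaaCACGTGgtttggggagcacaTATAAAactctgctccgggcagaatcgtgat
The Inhbb stretch held 1 GC box (GGGCGG, marked as its reverse complement) and 21 CpG dinucleotides in 68% G and C. The Tgfbr2 stretch held 2 CCAAT boxes (CCAAT), 1 on each strand. The Tgfb2 stretch held 1 CCAAT box, 1 TATA box (TATAAA), 1 SMAD element (CAGACA) and 1 E-box (CACGTG), with no overlap between them, and none of the 3 stretches held an AP-1 site (TGANTCA). Of 21263 promoters of protein-coding genes, 42.6% held the GC box, 35.4% the CCAAT box, 11.6% the TATA box and 15.2% the SMAD element. The E-box was in 6.63% and the AP-1 site in 6.13%, so only the GC and CCAAT boxes were common. Among the stretches not printed, that of Inhba held 1 TATA box and 0 GC boxes and lay inside the annotated span of the gene. That of Tgfb1 held 5 GC boxes. Tgfb1 had its highest mean in telogen, which overlapped mid catagen.

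The values are linear signals of the MAS 5.0 algorithm. Median signals of the arrays lay between 111.2 and 142.5, and signals under 34.6 were raised to that floor before the log2 step. No main probe set of a member was under the floor on any array. Markers of skin were present, with summed signals of 4 hair matrix and shaft genes (Krt35, Krt31, Shh, Hoxc13) between 40480 and 52450 in late anagen and early catagen of the natural cycle and between 562.2 and 909.9 in telogen. Replicate 2 of P39 stood apart in cornified epidermis (Flg, Lor, Krt1, Krt10), with a summed signal of 7767 against 39560 to 59880 on the other early catagen arrays. Markers of cell types moved with the cycle. The 4 mesenchyme markers (Vim, S100a4, Col1a1, Pdgfra) summed to 56450 to 83080 in telogen and 26500 to 42860 at P29, and the 5 leukocyte markers (Ptprc, Cd68, Itgam, Cd3e, H2-Aa) to 16250 to 24440 in telogen and 2722 to 4104 at P29. In whole skin, fewer cells of a type and less RNA per cell cannot be told apart.

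Over the natural cycle 8 of the 9 members varied among 6 phases (moderated F test of limma, Benjamini-Hochberg adjusted p under 0.05), where 77.1% of all 12859 genes did. The exception was Inhba (adjusted p = 0.171). Its probe set was dim, at 55 to 256 on all arrays and thus around the array medians, and with all arrays no comparison called it. After depilation only Tgfbr3 varied among the 5 time points (adjusted p = 0.0337), where 11.8% of genes did. That call was lost in the limma fit without any 1 of 8 of the 10 arrays, with adjusted p of up to 0.0955, and it was kept only without a D5 array. Most members ran a U-shaped course in the natural cycle, high in early anagen, low from late anagen to early catagen and high again in telogen, while Inhbb climbed through anagen to a maximum at P41.

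**Figure D1:**
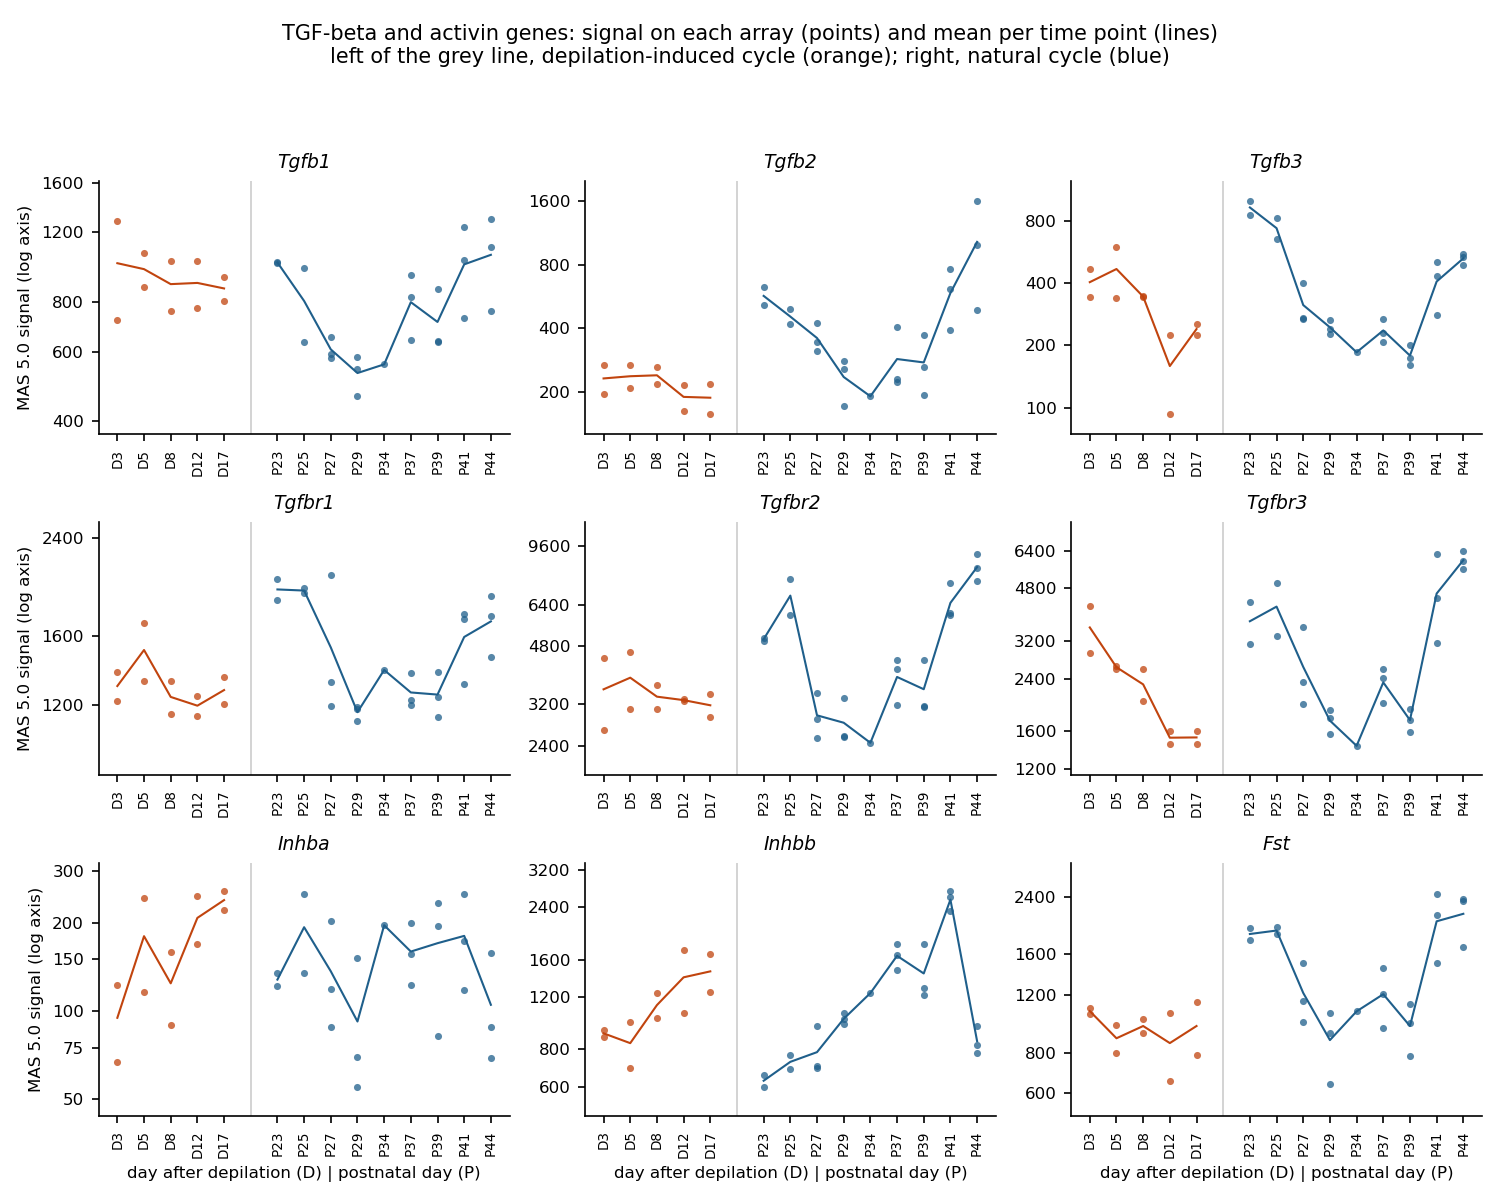
Signal of the main probe set of each of the 9 genes on every array (points) and its mean per time point (lines), on log axes that differ between panels. The depilation-induced cycle is on the left of each panel in orange and the natural cycle on the right in blue. Inhbb reached 2329 to 2714 at P41 and 778 to 956 at P44, whereas Tgfb2, Tgfbr2 and Tgfbr3 had their highest means at P44.

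Early anagen was set against telogen, and 2 members passed the test, where 30.1% of genes did, 15.4% higher and 14.6% lower. The telogen mice (P44) were older than those of early anagen, so this is not the telogen that preceded it. Each natural phase has its own days, so age and phase cannot be told apart. The ligand Tgfb3 had 995, 855, 649 and 822 in early anagen (P23 and P25) against 490.4, 532 and 554 in telogen, and the groups did not overlap. It was 1.56 times higher (log2 difference 0.64 ± 0.16 SE, limma adjusted p = 0.024). The coreceptor gene Tgfbr3 had 4328, 3129, 5018 and 3325 in early anagen against 5553, 6405 and 5918 in telogen, again without overlap, and was lower by a log2 difference of -0.62 ± 0.19 (adjusted p = 0.0458). Both calls were kept without replicate 1 of P25 and lost without any other single array, with adjusted p of up to 0.0665 for Tgfb3 and 0.13 for Tgfbr3. Without replicate 1 of P44, the female of that group, Tgfb2 was lower in early anagen (-1.31, adjusted p = 0.0161, the lowest over its alternatives, which reached 0.331), against -0.86 ± 0.37 (adjusted p = 0.128) with all arrays. Tgfbr3 also lost its call with no filter (adjusted p = 0.0915), with median centring (0.052) and by the methods' t-test (0.0866). Markers moved in this comparison as well, with 3 of 3 inner root sheath, 3 of 3 dermal papilla and 3 of 4 hair matrix markers higher in early anagen and 3 of 5 leukocyte markers lower (6699 to 11480 against 16250 to 24440), and their part in the result was not tested. The median over the 9 members was -0.21 and over all genes -0.02.

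Mid anagen brought 3 members down and none up, where 12.6% of genes fell and 18.8% passed in either direction. Tgfb3 fell to 273, 268 and 399.5 at P27, against 649 to 995 in early anagen (-1.42 ± 0.20, adjusted p = 0.0066). The type II receptor gene Tgfbr2 fell to 2897, 2523 and 3465, against 5084, 4972, 7654 and 5964 (-0.99 ± 0.19, adjusted p = 0.0149). Fst fell to 995, 1155 and 1504, against 1765 to 1934 (-0.64 ± 0.16, adjusted p = 0.0294). In each case the highest P27 array lay below the lowest early anagen array. All 4 mesenchyme markers fell in the same step, with a sum of 36670 to 42380 in mid anagen and 56380 to 71120 in early anagen, and their part in the result was not tested. The Tgfb3 call was kept without any single array, whereas that of Tgfbr2 was lost without replicate 1 or 2 of P27 (adjusted p of up to 0.0648) and that of Fst without either P23 array, replicate 2 of P25 or replicate 1 or 2 of P27 (up to 0.107), and the Fst call also with no filter (0.0611) and by the methods' t-test (0.063). The members had a median of -0.55 in this step, and all genes -0.10.

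Late anagen at P29 differed from mid anagen for none of the 9 members by limma, and 0% of genes were called. An unadjusted p under 0.05 was found for 2 members and for 5323 of the 26988 probe sets. The single array of P34, also late anagen and in no fit, had 191 for Tgfb2, 2447 for Tgfbr2 and 1433 for Tgfbr3, each below the mean of every other natural time point, and 1237 for Inhbb.

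The onset of catagen was compared as early catagen (P37 and P39) against late anagen (P29). By limma 0 of the 9 members passed, as did 0% of genes and 0 of the 26988 probe sets tested, of which 3596 had an unadjusted p under 0.05. Inhbb had the smallest p of the members, with 1217, 1570 and 1811 as the lowest, median and highest signal in early catagen against 1010, 1057 and 973 at P29. These groups did not overlap, and the log2 difference was 0.59 ± 0.15 (unadjusted p = 0.00276, adjusted p = 0.201). The P34 array of late anagen, in no fit, lay within the early catagen range for this gene. Tgfb1 had 634, 733 and 934 against 544, 581 and 465, likewise without overlap (0.50 ± 0.16, adjusted p = 0.265). Tgfbr2 at 0.39 ± 0.16 and Inhba at 0.90 ± 0.38 also had unadjusted p under 0.05, with overlapping groups, whereas Tgfb2 differed by 0.23 ± 0.26 and Tgfb3 by -0.26 ± 0.16. The members had a median of 0.32 and all genes 0.01. Without replicate 2 of P39, Inhbb stood at 0.66 (adjusted p = 0.144, with 0.143 to 0.46 over its alternatives) and again 0 members passed. P39 and P37 did not differ for any member by limma either, and 0% of genes passed. An unadjusted p under 0.05 was found for 2 members and for 1085 of the 26988 probe sets.

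Mid catagen (P41) was the first natural phase after mid anagen in which members passed against the phase before it. Against early catagen 6 of the 9 were higher and none lower, where 20.6% of genes were higher and 39.1% passed in either direction. Among the ligands, Tgfb2 had 392, 761 and 613 at P41 against a lowest, median and highest of 195, 247 and 407 in early catagen. It was 2.09 times higher (1.06 ± 0.28, adjusted p = 0.0171), with the lowest P41 array within the range of early catagen. Tgfb3 had 281, 433 and 507 against 162, 205 and 269.8 (0.95 ± 0.21, adjusted p = 0.00867), so that all P41 arrays were above all of early catagen. Tgfb1, the third ligand, had 1236, 1022 and 731 against 634, 733 and 934, with overlapping groups (0.38 ± 0.19, adjusted p = 0.151).

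Of the receptors, Tgfbr2 had 7421, 6040 and 5963 at P41 against 3142, 3633 and 4353 in early catagen (0.81 ± 0.15, adjusted p = 0.00424). Tgfbr3 had 3149, 4449 and 6236 against 1597, 1941 and 2592 (1.14 ± 0.22, adjusted p = 0.00486). Neither overlapped, and each was higher on 3 of 3 mid catagen arrays. Tgfbr1, the type I receptor gene, had 1310, 1752 and 1719 against 1145, 1235 and 1376, which overlapped (0.33 ± 0.12, adjusted p = 0.0578).

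On the activin side, Inhbb had 2329, 2714 and 2598 at P41 against 1217, 1570 and 1811, a difference of 0.74 ± 0.15 (1.67 times, adjusted p = 0.00607). Fst, whose product inhibits activin, had 1499.7, 2444 and 2112 against 781, 1056 and 1457 (0.89 ± 0.21, adjusted p = 0.0111). Ligand subunit and inhibitor were thus both higher at P41, without overlap. The members had a median of 0.81 against 0.04 for all genes. All 6 calls stood without replicate 2 of P39, at 0.67 to 1.10 and adjusted p of 0.00845 to 0.0295. Without replicate 2 or 3 of P41 that of Tgfb2 was lost (adjusted p of up to 0.0826), without replicate 2 that of Fst (0.0574), and without replicate 1 Tgfbr1 passed (0.46, adjusted p = 0.0153, with up to 0.215 over its alternatives). Of the 4 mesenchyme markers 3 were higher at P41 as well, with a sum of 41890 to 54100 against 20730 to 47300. Of the 5 leukocyte markers 2 were higher, with 7862 to 13220 against 2781 to 6466. Also higher were 3 of 3 outer root sheath and bulge, 3 of 4 muscle, 2 of 3 adipocyte and 2 of 2 endothelium markers. Lower were 4 of 4 hair matrix and shaft, 3 of 3 inner root sheath and 2 of 2 dividing cell markers. Their part in the result was not tested.

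**Figure D2:**
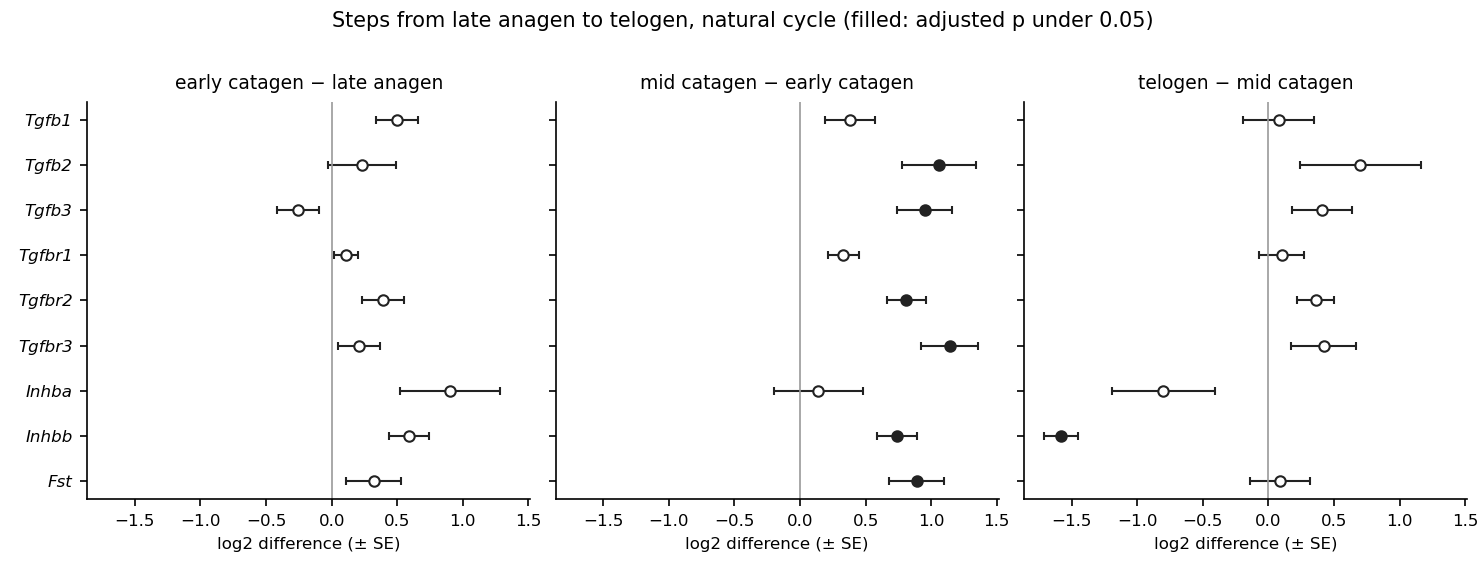
Log2 differences of the 9 genes in the 3 steps from late anagen to telogen of the natural cycle, later phase minus earlier phase, with SE bars from limma; filled points passed at an adjusted p under 0.05. The first step has no filled point, the second has 6 on the right of zero, and the third has Inhbb alone at -1.58.

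In telogen against mid catagen 1 member passed, where 4.37% of genes were lower and 7.05% passed in either direction. Inhbb fell to 778, 825 and 956 at P44, against 2329, 2714 and 2598 at P41, a factor of 0.334 (-1.58 ± 0.13, adjusted p = 0.00276). No P44 array came near the P41 range, and with 1 array left out at a time the difference stayed between -1.67 and -1.52 with adjusted p of 0.00962 to 0.0226. The second Inhbb probe set (1426859_at) had 307, 319 and 389.5 against 686, 629 and 786 (-1.05 ± 0.15, adjusted p = 0.0159), where 4.62% of such other probe sets of all genes passed. None of the other 8 members passed. Their differences ran from -0.80 ± 0.39 for Inhba to 0.70 ± 0.46 for Tgfb2, which had 491.5, 1596 and 992 in telogen, the widest relative spread of a member within that group. The lowest of these was the female mouse. All 4 hair matrix and shaft markers fell in this step as well, with a sum of 562.2 to 909.9 in telogen and 8573 to 14680 in mid catagen, and their part in the Inhbb result was not tested.

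Across the regression as a whole, 7 of the 9 members were higher in telogen than in late anagen (P29), where 28.7% of genes were higher and 49.2% passed in either direction. The ligand Tgfb2 stood 3.98 times higher (1.99 ± 0.43, adjusted p = 0.0101), with 491.5 to 1596 against 172 to 279.8, a call that was lost with no filter on low signals (adjusted p = 0.0507) and by the methods' t-test (0.0547, the highest over its alternatives). Tgfbr3 had 5553 to 6405 against 1564 to 1882 (1.78 ± 0.13, adjusted p = 0.000238). Tgfbr2 had 7536 to 9109 against 2550.2 to 3333 (1.57 ± 0.16, adjusted p = 0.000604). These 3 genes showed the widest differences among the members. Fst followed at 1.30 ± 0.24, Tgfb3 at 1.10 ± 0.13, Tgfb1 at 0.96 ± 0.22 and Tgfbr1 at 0.54 ± 0.14, each without overlap of the groups. Tgfbr1 lost its call without any single P29 array or replicate 2 or 3 of P44 (adjusted p of up to 0.0675). Inhbb differed by -0.25 ± 0.13 (adjusted p = 0.163). The median was 1.10 for the members and 0.08 for all genes. In telogen 3 of 4 mesenchyme and 5 of 5 leukocyte markers were higher, in the ranges given above. Also higher were 4 of 4 muscle, 3 of 4 cornified epidermis, 2 of 3 outer root sheath and bulge and 2 of 2 endothelium markers. Lower were 4 of 4 hair matrix and shaft, 3 of 3 inner root sheath and 2 of 2 dividing cell markers. So were 2 of 4 markers of neutrophils and injured epidermis and 1 of 3 of the dermal papilla. Their part in the result was not tested.

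Ordered by phase means, telogen was the highest phase for Tgfb1, Tgfb2, Tgfbr2, Tgfbr3 and Fst, early anagen for Tgfb3 and Tgfbr1, and mid catagen for Inhba and Inhbb. Tgfb3 averaged 830 ± 142 in early anagen (SD, n = 4) and 525.8 ± 32.5 in telogen (n = 3), without overlap. For Tgfb1, Tgfb2, Tgfbr1, Tgfbr3 and Inhba every phase overlapped the next in the order. With late anagen taken as P29, Inhbb was the only member whose 3 highest phases each stood clear of the next one. Mid catagen was at 2547 ± 197 (n = 3), early catagen at 1545 ± 257 (n = 6), late anagen at 1014 ± 42.2 (n = 3) and telogen at 853 ± 92.4 (n = 3). This order left out the P34 array, which is also late anagen and whose Inhbb signal lay within the range of early catagen.

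The injury of depilation was followed at D3, when the follicles enter anagen, and compared with telogen, the phase from which depilation starts, and with natural early anagen. Against telogen 4 of the 9 members were lower at D3 and none higher, where 18.7% of genes were lower and 31.9% passed in either direction. Tgfb2 had 269 and 195 at D3 against 491.5, 1596 and 992 in telogen, a factor of 0.249 (-2.0 ± 0.38, adjusted p = 0.000463). Tgfbr2 had 2674 and 4425 against 9109, 8263 and 7536 (-1.27 ± 0.22, adjusted p = 0.000189). Both D3 arrays were below all telogen arrays in each gene, although the D3 replicates of Tgfbr2 lay far apart. Fst had 1094 and 1050 against 1689, 2336 and 2360 (-0.97 ± 0.26, adjusted p = 0.00679), and Tgfbr3 had 2922 and 4188 against 5553, 6405 and 5918 (-0.77 ± 0.25, adjusted p = 0.024). Inhbb, at 881 and 932 against 778, 825 and 956, differed by 0.09 ± 0.21, and Tgfb1 by -0.09 ± 0.27. The Tgfbr3 call was lost without replicate 2 of P44 or replicate 1 of D3 (adjusted p of up to 0.295).

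The natural early anagen arrays gave a second reference for D3. Here 5 members were lower and none higher, where 25.8% of genes were lower and 42.7% passed in either direction. The ligand Tgfb3 had 466.5 and 341 at D3 against 995, 855, 649 and 822 (-1.04 ± 0.28, adjusted p = 0.0043). Tgfb2, with 269 and 195 against 514, 626, 418 and 492, was lower by -1.15 ± 0.36 (adjusted p = 0.0135). Tgfbr2 had 2674 and 4425 against 4972 to 7654 (-0.76 ± 0.21, adjusted p = 0.00519). In none of these 3 genes did a D3 array reach the lowest early anagen array. Fst at -0.80 ± 0.25 (adjusted p = 0.0119) and Tgfbr1 at -0.58 ± 0.17 (adjusted p = 0.0092) were also lower without overlap. The Tgfb2 call was lost with sex as a covariate (-0.68, adjusted p = 0.0725). Without replicate 2 of D3 the calls of Tgfb2, Tgfb3 and Tgfbr1 were lost (adjusted p of 0.135, 0.0786 and 0.0916), without replicate 1 that of Tgfbr2 (-0.40, adjusted p = 0.237), and without either that of Fst (up to 0.0695). The 2 comparisons share the D3 arrays, so their calls are not separate evidence.

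Depilated mice were female, and each natural phase compared with D3 held 1 female. In a fit of only female mice, chosen after seeing the data, the spread of the single telogen and early anagen arrays had to be taken as that of the other groups, and the early anagen one was replicate 1 of P25, which stood apart from its group for Tgfb1 and Inhba. Of the members Tgfbr2 alone passed there in each comparison, at -1.41 against telogen (adjusted p = 0.0283, with 5.21e-05 to 0.0283 over its alternatives) and -1.15 against early anagen (0.0436, with 0.000904 to 0.237). Tgfb2 stood at -1.10 against telogen in that fit, against -2.0 with both sexes. Markers of cell types differed at D3 too. Of the 4 markers of neutrophils and injured epidermis (S100a8, S100a9, Krt6a, Krt16), 1 was higher at D3 than in telogen and none lower. Against early anagen 2 of the 4 were higher and none lower. The mesenchyme markers summed to 17350 and 31640 at D3, against 56450 to 83080 in telogen and 56380 to 71120 in early anagen, with 3 of 4 lower in each comparison, and the leukocyte markers to 6198 and 10430 at D3, against 16250 to 24440 in telogen. Follicle markers were further apart against early anagen, with 4 of 4 hair matrix markers lower (median -3.94, sums of 240.9 and 398.1 against 4820 to 11200), 3 of 3 of the inner root sheath (Krt71, Krt25, Krt73; median -6.84, 187.7 and 197 against 16140 to 47530) and 3 of 3 of the dermal papilla (Corin, Vcan, Sox2; median -3.43, 267.9 and 466.6 against 2678 to 5523). Although both carry the name early anagen, D3 and P23 to P25 skin thus differed widely in these follicle markers, and the part of all these markers in the results was not tested. Centring arrays on their medians raised the log2 differences of kept probe sets at D3 by a median of 0.142 against telogen and 0.155 against early anagen. Under that scaling 3 members were called by limma against telogen, where Tgfbr3 was lost (-0.62, adjusted p = 0.0664, with 0.0141 to 0.295 over its alternatives). Against early anagen 6 were called, and Inhbb was higher (0.58, adjusted p = 0.0212, with up to 0.653 over its alternatives, against 0.42 and 0.0857 without that centring).

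**Figure D3:**
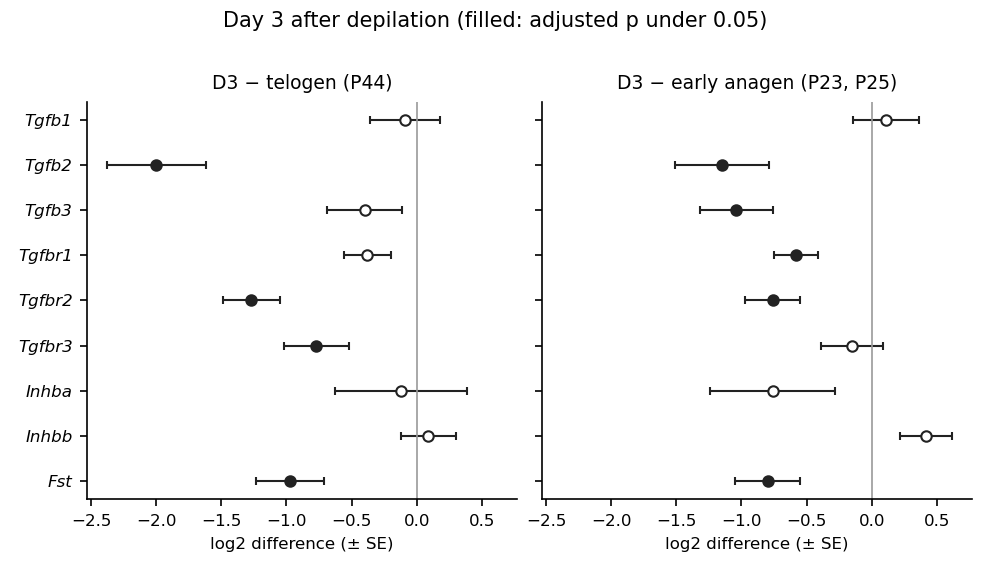
Log2 differences of the 9 genes at day 3 after depilation, D3 minus telogen on the left and D3 minus natural early anagen on the right, with SE bars from limma; filled points passed at an adjusted p under 0.05. All filled points lie left of zero, from -2.0 for Tgfb2 against telogen to -0.58 for Tgfbr1 against early anagen.

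Within the depilation-induced cycle no step called a member. None of the 9 passed by limma between D5 and D3, where 3.13% of genes did. The same held between late anagen (D8 and D12) and D5 (0.77%) and between D17 and late anagen (0%). In these steps 0, 2 and 0 members had an unadjusted p under 0.05, as did 5537, 4796 and 948 of the 26988 probe sets. Tgfbr3, the member that varied in the F test, had 2922 and 4188 at D3, 2588 and 2651 at D5, 2578 and 2015 at D8, 1448 and 1603 at D12, and 1449 and 1608 at D17. Its D12 and D17 arrays were all below those of the 3 earlier days. Tgfb3 had 596 and 339 at D5 and between 93.6 and 347 over D8 and D12 (-1.01 ± 0.37, adjusted p = 0.23, and 0.0367 in a joint fit of all 33 arrays, the lowest over its alternatives). Inhbb had 693 and 987 at D5, 1236 and 1018 at D8, 1062 and 1732 at D12 and 1678 and 1248 at D17, a course whose successive days overlapped except between D5 and D8.

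Set against the matching natural phase, D5 differed from P27 for 0 members by limma, where 21.3% of genes passed. D17 differed from early catagen for 0, where 9.36% did. An unadjusted p under 0.05 was found for 1 and 0 members, and for 9604 and 7696 of the 26988 probe sets. In late anagen Tgfb1 was higher after depilation, with 1015, 761, 773 and 1016 at D8 and D12 against 544, 581 and 465 at P29, where 10.8% of genes were higher and 19.4% passed in either direction. It was 1.67 times higher without overlap (0.74 ± 0.22, adjusted p = 0.017). The call was lost without replicate 3 of P29, replicate 1 of D8 or replicate 2 of D12 (adjusted p of up to 0.0785), and with only female mice (0.76, adjusted p = 0.0725). Cornified epidermis markers were higher too, 3 of 4 of them, with a sum of 55810 to 81720 at D8 and D12 and 28700 to 31360 at P29, as were 2 of 5 leukocyte markers, with 6388 to 8091 and 2722 to 4104, and their part was not tested. Inhba passed only without replicate 3 of P29 (1.33, adjusted p = 0.0424, with up to 0.391 over its alternatives). The change on entering early catagen was also compared between the cycles as an interaction. By limma 0 members and 0% of genes passed. An unadjusted p under 0.05 was found for 0 members and for 1179 of the 26988 probe sets. For Inhbb the change was smaller after depilation by -0.36, with a 95% interval of -0.89 to 0.17, and for Tgfb1 by -0.53 (-1.21 to 0.15), which leaves differences of either sign within reach of these arrays.

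Other probe sets of a gene did not always follow the main one. Within the natural cycle the other kept probe sets of Tgfb2, Tgfbr3, Inhbb and Fst had the sign of the main probe set at mid catagen and in telogen against late anagen, with Tgfbr3 (1425620_at) at 0.89 ± 0.19 and Fst (1421365_at) at 0.83 ± 0.20 for mid against early catagen (adjusted p of 0.0069 and 0.0123), where 33.1% of the other probe sets of all genes passed. Tgfbr1 split. In telogen against late anagen its main probe set was 0.54 higher, whereas 1420893_a_at was lower (-0.80 ± 0.24, adjusted p = 0.0322) with 107.5, 188 and 142 against 301, 227 and 223, where 42.3% of other probe sets passed.

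Between the cycles the split was wider. At D8 and D12 the Tgfbr1 probe set 1420894_at had 28.2, 84.9, 166 and 111 against 272, 266 and 229.6 at P29 (-1.57 ± 0.35, adjusted p = 0.00224) and 1420893_a_at differed by -1.36 ± 0.29 (adjusted p = 0.0015), while the main probe set differed by 0.06 ± 0.15. Fst ran the other way, since 1421365_at had 1006 and 1221 at D3 against 591 to 902 in early anagen (0.74 ± 0.28, adjusted p = 0.0347), where the main probe set was lower. It was also higher at D8 and D12 (1.07 ± 0.24, adjusted p = 0.00269) and at D17 (1.00 ± 0.26, adjusted p = 0.0117). At D3 against telogen it stood at 0.65 ± 0.29 (adjusted p = 0.0928). The Fst results between the cycles therefore hold for the main probe set alone. At D3 against early anagen the other kept probe sets of Tgfbr1 were lower like the main one (-2.03 ± 0.33 and -1.65 ± 0.40), whereas 1 of the 3 others of Tgfb2 (1423250_a_at) stood at 0.11 ± 0.38. Tgfbr2 and Tgfbr3 kept their sign at D3, with 1425444_a_at of Tgfbr2 at -2.20 ± 0.58 and 1425620_at of Tgfbr3 at -1.80 ± 0.31 against telogen, but the Tgfbr3 one was also lower at D8 and D12 (-0.87 ± 0.26, adjusted p = 0.0165), where the main probe set stood at 0.10 ± 0.21. Among the other 10392 probe sets of all genes, 33.1% passed at D3 against telogen, 45.8% at D3 against early anagen, 18.9% at D17 and 31.7% at D8 and D12, the last with a median of -0.11, against 0.03 for main probe sets. Which transcripts each probe set of a gene detects was not tested.

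**Figure D4:**
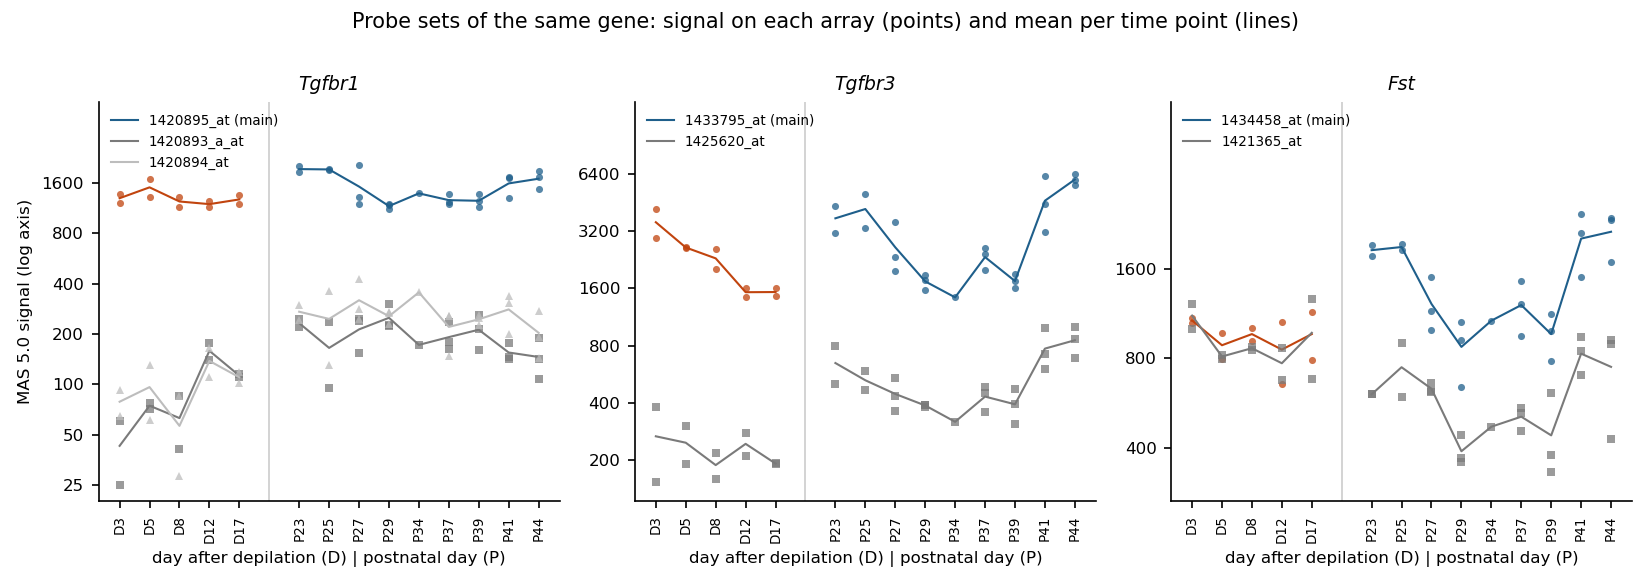
Signal of each kept probe set of Tgfbr1, Tgfbr3 and Fst on every array (points) and its mean per time point (lines), on log axes; depilation is left of the grey line and the natural cycle right of it. Main probe sets are orange and blue and the others grey. The grey Tgfbr1 probe sets are at 25.2 to 177.8 after depilation and 95.2 to 428.7 in the natural cycle, while the main probe set is at 1124 to 2058 over all arrays.

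A list of 72 other genes of the pathway, of which 62 were measured above the filter, covered latency and activation of TGF-beta, receptors, activin-related ligands and inhibitors, SMADs and their regulators, and response genes. In telogen against late anagen 26 were higher and 13 lower, where 28.7% of all genes were higher and 20.5% lower, with a median of 0.41 against 0.08 for all genes. In mid against early catagen 20 were higher and 10 lower, where 20.6% of all genes were higher and 18.5% lower (median 0.23 against 0.04). In both steps the lower calls made up about the share seen over all genes. From late anagen to early catagen 0 passed by limma, as among the members.

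By role, of 14 latency and activation genes 8 were higher and 1 lower at mid catagen, against the same 20.6% and 18.5% over all genes. Thbs1 encodes thrombospondin-1, which can activate latent TGF-beta, and had 6342, 6148 and 6266.5 at P41 against 1175 to 3616 in early catagen (1.60 ± 0.33, adjusted p = 0.00622). In telogen it fell to 1015, 707 and 935 (-2.84 ± 0.16, adjusted p = 0.000877). Like Inhbb, it had its natural maximum at P41. Among the binding proteins of latent TGF-beta, Ltbp2 was higher at P41 by 1.60 ± 0.31 and Ltbp1 by 0.94 ± 0.22, and the matrix metalloproteinase gene Mmp2 was 2.58 ± 0.23 higher in telogen than in late anagen (adjusted p = 0.000381).

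Bambi encodes a pseudoreceptor that dampens TGF-beta signalling. In mid against early catagen and in telogen against late anagen, where most members were higher, Bambi was lower. At D3 against natural early anagen, where 5 members were lower, Bambi was lower as well (-2.47 ± 0.27, limma adjusted p = 5.06e-07). It had 1952, 1283 and 1751 at P41 against 4045 to 5104 in early catagen (-1.40 ± 0.14, adjusted p = 0.000266), and 256, 269 and 197 in telogen against 4308, 4676 and 5958 in late anagen (-4.37 ± 0.19, adjusted p = 4.95e-05). Smad7, the inhibitory SMAD, was lower at P41 too (-0.81 ± 0.13, adjusted p = 0.0018), with 654, 626 and 831 against 1049 to 1391. Of the 19 SMADs and regulators 2 were higher and 6 lower in that step (20.6% and 18.5% of all genes), with Smad2 at -0.59 ± 0.09 and the corepressor gene Tgif2 at -0.81 ± 0.22 among those lower. Hair matrix markers fell together with Bambi and Smad7 (4 of 4, sums of 8573 to 14680 at P41 against 40480 to 47080), and their part was not tested.

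Response genes were mixed. At mid catagen 7 of 19 were higher and 2 lower, against 20.6% and 18.5% over all genes, with the matricellular genes Ccn2 (0.79 ± 0.12) and Postn (0.85 ± 0.11), the matrix gene Fn1 (0.78 ± 0.23) and Tgfbi (1.31 ± 0.37) among those higher. Junb, a subunit of the transcription factor AP-1, was lower (-1.06 ± 0.13, adjusted p = 0.000612). Some response genes were therefore higher and others lower in the same step.

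At D3 against telogen 23 of the 62 genes were lower and 2 higher, where 18.7% of all genes were lower and 13.2% higher, with a median of -0.33 against -0.06 for all genes. Against natural early anagen 25 were lower and 6 higher, where 25.8% of all genes were lower and 17% higher. The fibronectin gene Fn1 had 1187 and 2413 at D3 against 12883, 13467.5 and 11875 in telogen (-2.91 ± 0.32, adjusted p = 2.16e-06). Fstl1, a follistatin-like gene, had 2862 and 4237 against 10087, 19781 and 14117 (-2.02 ± 0.25, adjusted p = 6.1e-06). In both, each D3 array was well below every telogen array. The 2 genes higher at D3 were Junb (2.17, adjusted p = 9.26e-05) and Ccn1, a matricellular response gene (1.61, adjusted p = 0.000622). Col1a1 (-2.77 ± 0.39), which is also one of the 4 mesenchyme markers, and Col1a2 (-1.67 ± 0.22) were among those lower. Ccn1 was lower at D5 than at D3 (-1.77 ± 0.28, adjusted p = 0.0261), while Bambi was higher at D5, with 759 and 1414 against 113 and 109 at D3 (3.22 ± 0.27, adjusted p = 0.00331). Smad7 was higher at D8 and D12 than at D5 (1.01 ± 0.14, adjusted p = 0.0388), the only listed gene to pass there.

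**Figure D5:**
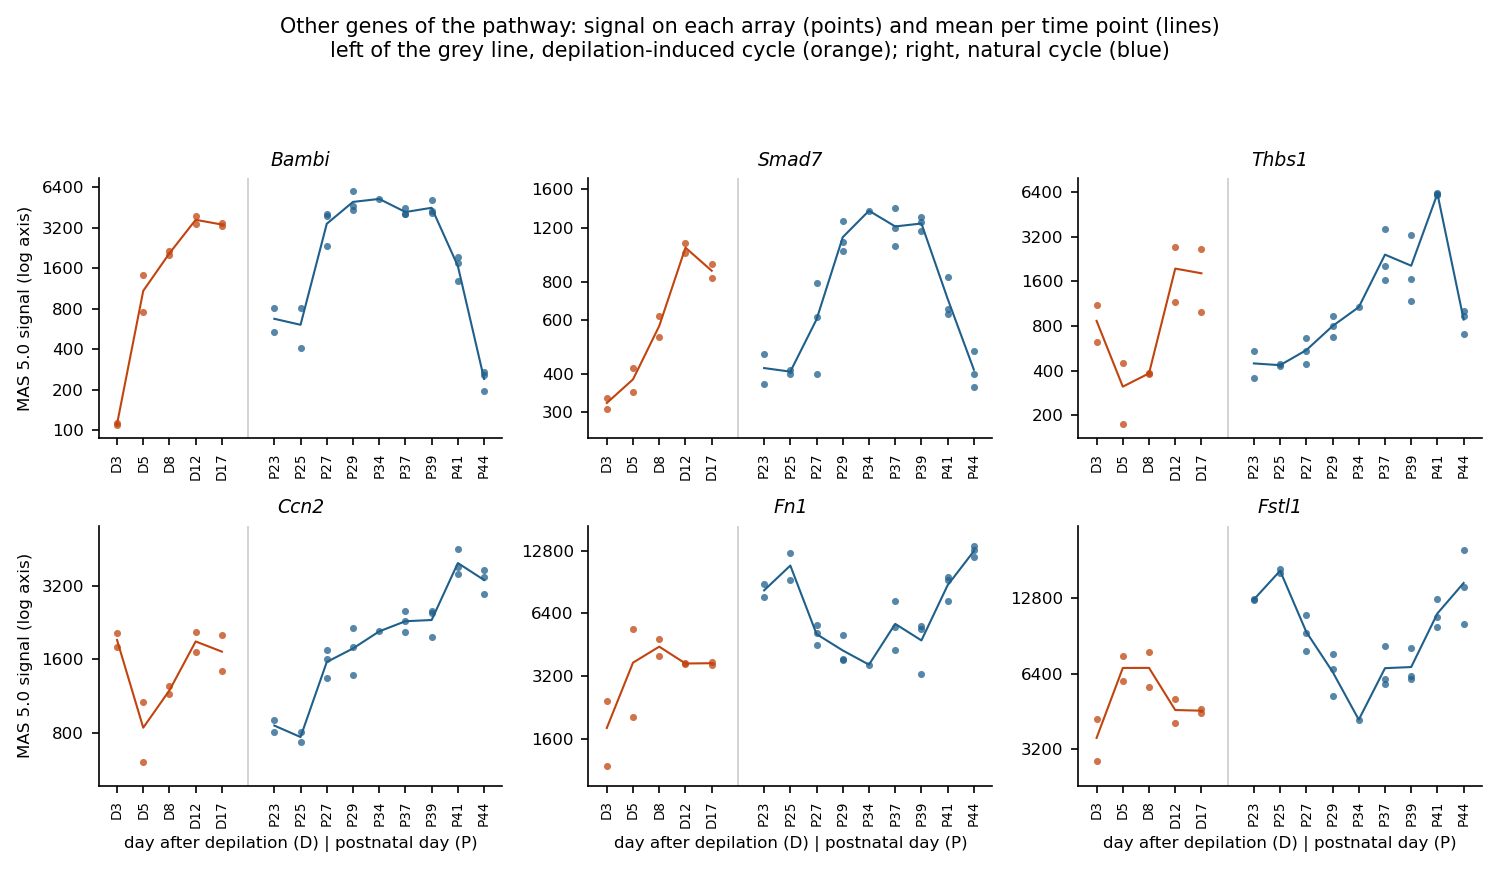
Signal of the main probe sets of Bambi, Smad7, Thbs1, Ccn2, Fn1 and Fstl1 on every array (points) and the mean per time point (lines), on log axes; depilation is on the left in orange and the natural cycle on the right in blue. Thbs1 is at 6148 to 6342 at P41 and Bambi at 197 to 269 at P44, and Fn1 at 1187 and 2413 at D3.

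The members also resembled each other in part. Over the 14 time point means, which share arrays of both cycles, Tgfb2, Tgfbr2, Tgfbr3 and Fst had pairwise Pearson r of 0.86 to 0.93 on the log2 scale. Of the other pairs, Tgfb3 with Tgfbr1 (0.86) and Tgfbr1 with Fst (0.85) had the highest r. Inhbb had r between -0.59 and 0.41 with the others, and Inhba between -0.38 and 0.41. Among 12858 other genes, those with the highest r were Iffo2 (0.969), Hr (0.947) and Nuak1 (0.94) for Inhbb. Hr, hairless, encodes a transcriptional corepressor whose loss in mice leaves follicles unable to regenerate after catagen. For Tgfbr3 they were Lamb2 (0.987), Ulk2 (0.982) and Ifitm2 (0.982), for Tgfbr2 Csf2ra (0.986), Fes (0.982) and Trim30d (0.98), and for Tgfb3 Tent4b (0.976), Pth1r (0.974) and Rnf144a (0.973). For Tgfb2 they were Zhx3 (0.958), Parp12 (0.957) and Cubn (0.956), for Fst Parp12 (0.968), Abi3bp (0.966) and Scn3a (0.964), and for Tgfbr1 Mr1 (0.953), Rab33b (0.951) and Nptx2 (0.95). Tgfb1 had its highest r with Vps37a (0.928), H2-DMb2 (0.925) and Kmt2e (0.923). The dim Inhba had none above 0.834, that with Plcg1, followed by Txlna (0.812) and Arpc1a (0.785). Each gene was chosen as the highest of many, so these values describe the courses and nothing else.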

How the data were processed

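RNA of whole mouse dorsal skin was measured on 33 Affymetrix arrays. The authors scaled the scans with the MAS 5.0 algorithm, and the deposited values are linear probe set intensity signals, so low values are noisy. Here the 25th percentile over the whole table (34.6) served as a floor, below which signals were set to it before log2. A probe set was kept if it exceeded its array's median on at least 3 arrays, which left 26988 of 45037. Genes were named by probe sets with 1 symbol. Each comparison was fitted with limma (version 3.58.1, R 4.3.3) on its own arrays, or on all 33 for comparisons of the cycles and all 10 within depilation, p-values being adjusted after Benjamini and Hochberg across every kept probe set, with 0.05 as the threshold. The fits were tested on simulated data. Errors after ± are SE of log2 differences, or SD of signals. Days were grouped by the series' phases, since some sample labels of P41, P44 and the depilated skin carry the words early anagen. The P34 array entered no main fit. The labels give 1 mouse for each array, and the number of arrays limits the precision.

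The members and the gene lists were chosen with earlier results of these data known. All members were named, with listed genes named where they passed a test and the 3 most similar genes by Pearson r. Alternatives changed the floor, filter, scaling, covariates, test, probe set and arrays. What is called the methods' t-test was an ordinary t-test on the floored log2 signals of all kept probe sets. The study's one-way ANOVA used differently transformed values of hair cycle-regulated genes and was not repeated. Figures used Python 3.11.15 and matplotlib 3.10.9.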

Additional observations from a re-analysis of the deposited data

Results flagged for a closer look

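Of 27 groups of 4 to 10 arrays examined, 2 held an array far from its group, where chance flags about 1 in 20 groups. Both were replicate 1 of P25 in early anagen. Its Tgfb1 signal was 634.4, against 976.5 to 1012 on the other 3 arrays, with a gap of 0.906 of the group's range. Its Inhba signal was 250.8, against 121.6 to 134.8, with a gap of 0.898 of the range. Without it Tgfb1 passed between mid and early anagen (adjusted p = 0.0114 by limma, against 0.0755 with it).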

How the results depend on the processing

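Of the single-gene results, 1452 under other settings kept their side of the threshold, 26 lost and 16 gained a call. With 1 array left out 1297 kept their side, 46 lost and 7 gained a call. None of these reversed, meaning a change of sign with a call in either fit. Sign changes of results called in neither fit were not counted. For early anagen against telogen (2 members called) the count was 1 with no filter, 1 with median centring, 4 with sex as a covariate, 0 with the replicate block, 4 in a joint fit of all 33 arrays, and 1 by the methods' t-test both after Benjamini-Hochberg and at its unadjusted threshold of 0.01. For mid against early anagen (3) it was 6 with sex as a covariate and 5 with the replicate block. In early catagen against late anagen (0) the methods' t-test called 1 member, Inhbb, at its unadjusted threshold of 0.01 and 0 after Benjamini-Hochberg. The joint fit called 1, Tgfb3, for D8 and D12 against D5 (0), and median centring 1, Tgfb1, for D5 against P27 (0). The F test over depilation days (1) called 0 with no filter and 0 with the replicate block. Shares over all genes under other settings are not given here. The counts thus cannot show whether the members moved more than other genes. Arrays of the same replicate number had a mean r of 0.009 in their deviations (171 pairs) and those of different numbers -0.005 (300 pairs). Of 32 arrays, 16 correlated best with their own number. In a group of 2 arrays the deviations mirror each other, so this check cannot show whether the numbers mean a link between arrays. With only female mice, a fit chosen after seeing the data, the counts were 1 for D3 against telogen (4), 1 for D3 against early anagen (5) and 0 for D8 and D12 against P29 (1).

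With 1 array left out, the counts ranged from 0 to 3 for early anagen against telogen, 1 to 5 for mid against early anagen, 4 to 7 for mid against early catagen, 6 to 7 for telogen against late anagen, 1 to 1 for telogen against mid catagen, 3 to 4 for D3 against telogen, 1 to 5 for D3 against early anagen, 0 to 1 for D8 and D12 against P29, 8 to 8 for the natural F test, 0 to 1 for the depilation F test and 0 to 0 for the rest. In that order, the calls over all 26988 probe sets ranged from 4271 to 7959, 1580 to 5867, 5648 to 9654, 9516 to 11207 and 463 to 1370. From D3 against telogen on, they ranged from 4634 to 7835, 7613 to 11756, 5062 to 6523, 18776 to 19515 and 734 to 4055. Of 171 results from other probe sets 12 reversed. Tgfbr1 stood at -0.80 and -0.38 in telogen against late anagen, at -1.49 and -1.79 at D5 and at -1.36 and -1.57 at D8 and D12 against the natural phase. Tgfbr3 stood at -0.87 at D5 and -0.87 at D8 and D12. Fst stood at 0.65 for D3 against telogen, 0.74 for D3 against early anagen and 1.00 for D17 against early catagen, and Tgfb2 at 0.11 for D3 against early anagen. The causes were not tested. Precision is limited by 2 or 3 arrays a time point, and for Inhba by signals near the array medians.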
